A study of Mus musculus with 20 samples.

Results

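The glucocorticoid receptor and 7 genes known to be induced by glucocorticoids were followed in donor T cells taken from mice after allogeneic transplantation. The receptor gene, *Nr3c1*, was picked on its measured values in these libraries, because its level differed from WT in opposite directions in KO CD4+ and KO CD8+ cells, and its levels are therefore described with no test. The other members, *Tsc22d3*, *Fkbp5*, *Per1*, *Sgk1*, *Klf9*, *Zbtb16* and *Ddit4*, were chosen as genes known to be switched on by glucocorticoids. Earlier results of these data were known when they were chosen. Of the 8 named genes, 7 have a row in the table of 17101 genes, and 6 of these are target genes. *Tsc22d3*, which encodes the leucine zipper protein GILZ and lies on chromosome X (140539528-140600522, GRCm38.p6), was not analysed here, and 4 genes of the table matched RefSeq genes on chromosome X.

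Glucocorticoids such as corticosterone enter cells freely and bind a receptor that waits in the cytoplasm in a complex with HSP90 and other chaperones. The loaded receptor moves into the nucleus, binds DNA as a dimer at glucocorticoid response elements, and raises or lowers transcription of genes nearby. In T cells the hormone restrains cytokine production and can cause death of thymocytes, and synthetic glucocorticoids are the standard first treatment of graft-versus-host disease.

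The study asked how loss of the DNA methyltransferase DNMT3a in donor T cells affects their behaviour after transplantation. KO donors carried loxP-flanked *Dnmt3a* alleles (DNMT3a 2loxP) and CD4-Cre, a Cre driven by the *Cd4* promoter that acts once developing T cells turn that promoter on, so that mature CD4+ and CD8+ cells both derive from deleted precursors, and WT donors were littermates on the same B6 background. Donor T cells were given with bone marrow to irradiated F1 recipients that share only part of their MHC with the donor, and were sorted from the spleen on day 10. Donors were 6 to 12 and recipients 8 to 12 weeks old, and the strain field of the labels reads only "primary". There were 4 libraries in each of 5 groups, KO CD4+, KO CD8+, KO CD4+CD8+ double-positive (DP), WT CD4+ and WT CD8+. KO animals are numbered 1 to 4 and WT animals 2, 3, 5 and 6. These numbers come from the sample titles, and samples of a genotype with the same number are taken here to be from the same animal. DP cells of WT animals are not part of the analysis, and all groups come from transplanted recipients, so no cells at rest enter any comparison.

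Poly(A)-selected RNA was sequenced, and between 37547651 and 46966318 reads per library fell on genes. Reads were found on 13203 to 14677 genes in all libraries but that of DP cells from KO animal 3, which had 11783, and DP fold changes of *Nr3c1*, *Fkbp5*, *Ddit4* and *Per1* are given with and without this library. *Dnmt3a* itself was lower in KO than in WT cells in every library, at 1385 to 1658 against 4690.0 to 5171 normalized counts in CD4+ cells and 1287 to 2007 against 3542 to 3812 in CD8+ cells. Of the T cell markers *Cd3d*, *Cd3e*, *Cd3g*, *Trac*, *Lck* and *Cd2*, 5 have a row, and their sum lay between 118740 and 226237 in every library. The summed CD4+ markers *Cd4*, *Zbtb7b* and *Cd40lg* (2 with a row) were 51465 to 84173 in sorted CD4+ cells, 1848 to 3632 in CD8+ cells and 10606 to 17808 in DP cells. The summed CD8+ markers *Cd8a*, *Cd8b1* and *Runx3* were 7170 to 8188 in WT CD4+ and 7378 to 16122 in KO CD4+ libraries. They were 104772 to 113589 in WT CD8+, 93939 to 122204 in KO CD8+ and 94149 to 121472 in DP libraries. A normalized count is a read count divided by the size factor of its library, and every fold change below is on the log2(normalized count + 1) scale. Because each library is a bulk sample of sorted cells, fewer cells with a transcript and less transcript per cell cannot be told apart. The p-values set a difference against the spread between libraries. Comparisons within a genotype and the interaction treat samples of the same animal as independent, unless the animal is named as a block.

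DNA that the receptor is known to bind is shown first, because it is what the hormone-bound receptor recognizes near its targets. The full palindromic response element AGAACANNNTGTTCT, which reads the same on both strands, occurs 639 times in GRCm38.p6. It was searched within 100 kb on either side of the transcription starts listed for each gene by RefSeq. Of the 9350 genes tested in CD4+ cells that have a listed start, 3.83% hold the palindrome within this distance, and *Fkbp5*, *Sgk1* and *Ddit4* do so among the 5 tested target genes with a listed start (*Fkbp5*, *Per1*, *Sgk1*, *Klf9* and *Ddit4*). The sites are printed 5′ to 3′ on the strand of the gene, with 15 bases on each side in lower case and the palindrome in capitals. *Fkbp5* is on the minus strand of chromosome 17 (28398753-28486149), and its sites lie in intron 1, 43.72 kb after the start (chr17:28442404-28442448), and in intron 5, 65.82 kb after the start (chr17:28420306-28420350). *Ddit4* is on the minus strand of chromosome 10 (59949675-59951770), and its site lies at -22.51 kb from the start (chr10:59974258-59974302), outside its transcript.
Fkbp5, intron 1: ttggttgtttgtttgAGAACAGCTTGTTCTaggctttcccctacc
Fkbp5, intron 5: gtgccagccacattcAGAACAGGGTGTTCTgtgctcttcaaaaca
Ddit4, upstream: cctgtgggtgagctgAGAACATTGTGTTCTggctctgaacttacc

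*Sgk1*, on the plus strand of chromosome 10 (21882184-21999903), has 6 listed starts, and the palindrome sits inside the promoter window of the last but 1 of them. Its centre lies at -182 bases from that start, within an intron of the RefSeq transcripts that begin further upstream. The window runs from 250 bases before to 50 bases after the start (chr10:21993640-21993939), and is shown whole because it was the only window of a member with the element.
Sgk1, promoter window: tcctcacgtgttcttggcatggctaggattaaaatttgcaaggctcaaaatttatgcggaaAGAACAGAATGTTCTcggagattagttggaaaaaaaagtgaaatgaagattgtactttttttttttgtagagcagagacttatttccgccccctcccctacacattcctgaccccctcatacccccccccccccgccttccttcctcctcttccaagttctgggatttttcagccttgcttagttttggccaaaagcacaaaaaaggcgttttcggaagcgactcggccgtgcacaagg
Of all 32851 RefSeq promoter windows of this length, 3 (0.00913%) hold the palindrome. A relaxed form leaves the outermost and an inner letter of each arm free, is its own reverse complement and includes every full palindrome. It is found in 156 windows (0.475%), and among the 14 windows of the 6 members with an entry it occurs in this *Sgk1* window alone. A match describes letters in the reference genome and says nothing about receptor binding in these cells, and the absence of a match in *Per1*, *Klf9* and *Tsc22d3* says only that these letters are not in the windows searched.

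*Nr3c1*, on chromosome 18 (39410545-39519421, minus strand), was highest in WT CD4+ cells, where WT animals 2, 3, 5 and 6 had 5154, 5110.1, 4901 and 5072 normalized counts. In KO CD4+ cells, animals 1 to 4 had 3464, 3371, 4239 and 3446. All 4 KO CD4+ libraries therefore lay below all 4 WT CD4+ libraries, with a mean of 3629.8 ± 408 (SD, n = 4) against 5059 ± 111 and a log2 fold change of -0.48, or 0.714-fold. In CD8+ cells the order was the opposite. WT CD8+ libraries had 2732, 2646, 2531 and 2316 normalized counts and KO CD8+ libraries 3185, 3872, 2881 and 3194, so every KO library lay above every WT library. The means were 2556 ± 180.1 and 3283 ± 419 (SD, n = 4 each), which is a log2 fold change of 0.36, or 1.28-fold. The fold change in CD4+ cells was 0.84 lower than that in CD8+ cells on the log2 scale.

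Seen by subset, the receptor transcript differed less between CD4+ and CD8+ cells in KO than in WT animals. WT CD4+ cells had 1.98-fold the level of WT CD8+ cells, while KO CD4+ cells had 1.11-fold the level of KO CD8+ cells, with overlapping libraries. KO DP cells had 3137, 3359, 1395 and 2480.4 normalized counts in animals 1 to 4, a mean of 2593 ± 881 (SD, n = 4). The lowest of these is the library with few detected genes, and the log2 fold change of DP against KO CD8+ cells was -0.41 with it and -0.14 without it. Ordered by mean level, WT CD4+ was followed by KO CD4+, KO CD8+, KO DP and WT CD8+. WT CD4+ cells did not overlap the group next to them, whereas KO CD4+ and KO CD8+, KO CD8+ and KO DP, and KO DP and WT CD8+ each overlapped. All of these values describe the pattern for which the gene was picked.

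**Figure D1:**
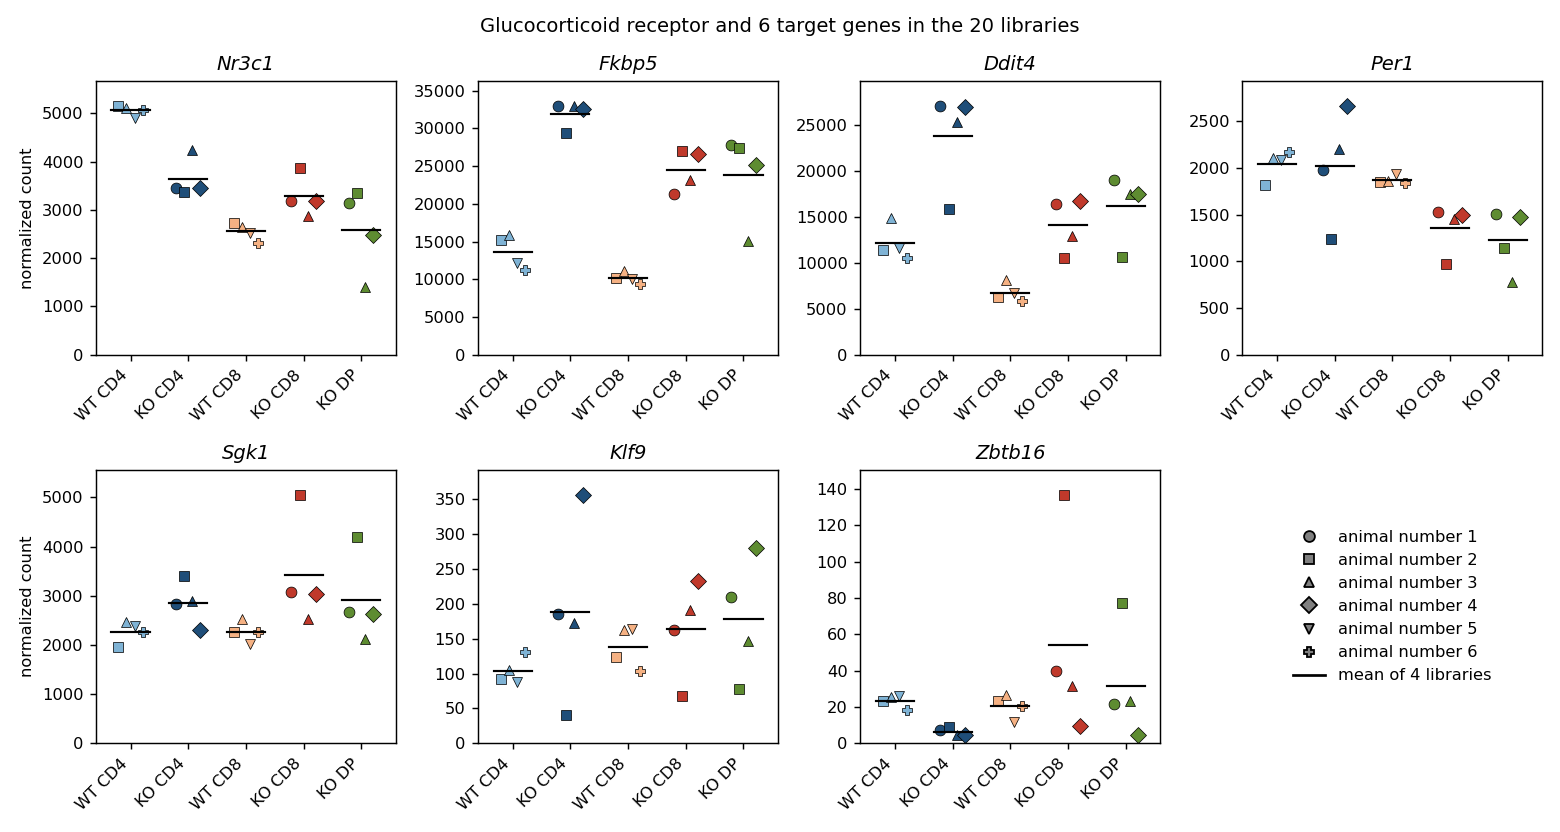
Normalized count (vertical axes, linear and starting at 0) of the receptor gene *Nr3c1* and 6 target genes in each of the 20 libraries, by group (horizontal axes). Each point is a library, its shape gives the animal number within the genotype, and the line is the mean of 4 libraries. The KO points of *Fkbp5* and *Ddit4* lie above the WT points of the same subset in CD4+ and CD8+ cells, while *Nr3c1* is lower in KO CD4+ and higher in KO CD8+ cells than in WT.

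Among the target genes, *Fkbp5* showed the clearest difference between genotypes. It encodes FKBP51, a co-chaperone of HSP90 that binds the receptor complex, lowers its affinity for hormone and is itself induced by the hormone-bound receptor, which makes it a brake in a negative feedback loop. WT CD4+ libraries had 15185, 15859, 12172 and 11290.4 normalized counts, and KO CD4+ libraries 32912, 29401, 32981 and 32530.4. In CD8+ cells, WT libraries had 10197, 11102, 10102 and 9411 and KO libraries 21264, 27022, 23104 and 26631. The genotypes were far apart in both subsets, and the lowest KO library was above the highest WT library each time. *Fkbp5* rose by 1.24 ± 0.11 on the log2 scale (SE, 2.37-fold) in KO CD4+ cells (limma with Benjamini-Hochberg adjustment over 12391 genes, adjusted p = 0.00056) and by 1.26 ± 0.09 (2.39-fold) in KO CD8+ cells (limma, adjusted p = 0.000172 over 12383 genes). *Fkbp5* was thus higher in KO cells of both subsets, including the CD4+ cells in which *Nr3c1* was lower. Leaving out any single library gave log2 fold changes of 1.16 to 1.32 for CD4+ and 1.21 to 1.33 for CD8+ cells, and limma called the gene each time.

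*Ddit4* encodes REDD1, an inhibitor of the mTORC1 kinase that glucocorticoids, hypoxia and energy stress all induce. Its counts were 11430.4, 14921, 11605 and 10528 in WT CD4+ libraries and 27112, 15913, 25393 and 26974 in KO CD4+ libraries. They were 6327, 8139.8, 6693 and 5841 in WT CD8+ libraries and 16381, 10563, 12966 and 16789 in KO CD8+ libraries. The lowest KO count came from animal 2 in both subsets and still lay above every WT library. *Ddit4* rose by 0.96 ± 0.17 (SE, 1.94-fold) in KO CD4+ cells (limma, adjusted p = 0.00792) and by 1.06 ± 0.16 (2.08-fold) in KO CD8+ cells (limma, adjusted p = 0.00284). Without KO animal 2 the log2 fold change was 1.14 in CD4+ and 1.19 in CD8+ cells.

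*Per1*, a repressor in the core circadian clock that is acutely induced by glucocorticoids, did not follow these genes. WT CD4+ libraries had 1821, 2105, 2088 and 2169 normalized counts and KO CD4+ libraries 1974, 1244, 2209 and 2665, so the WT range lay inside the KO range. The log2 fold change was -0.07 with a 95% confidence interval of -0.50 to 0.36 (limma, adjusted p = 0.823). In CD8+ cells, WT libraries had 1854, 1866, 1937 and 1845 and KO libraries 1525, 969.7, 1452 and 1501. All KO CD8+ libraries were below all WT CD8+ libraries, and *Per1* fell by 0.48 on the log2 scale (SE 0.14, 0.715-fold, limma adjusted p = 0.033). This call was lost when any WT CD8+ library was left out (limma adjusted p 0.0766 to 0.0873), with log2 fold changes of -0.47 to -0.49.

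*Sgk1* encodes a serum- and glucocorticoid-regulated kinase that acts downstream of PI3K and controls ion transport and helper T cell fate. Its WT CD4+ libraries had 1958, 2467, 2383 and 2255 normalized counts and its KO CD4+ libraries 2832, 3403, 2891 and 2296. WT CD8+ libraries had 2261, 2528, 2020.1 and 2256 and KO CD8+ libraries 3074, 5057, 2527 and 3042. A single KO library overlapped the WT range in each subset, that of animal 4 in CD4+ and that of animal 3 in CD8+ cells. The log2 fold changes were 0.33 ± 0.12 (SE, limma adjusted p = 0.0849) and 0.55 ± 0.19 (SE, limma adjusted p = 0.057), so neither passed the threshold, although other tools and libraries moved both across it. The adjusted p in CD8+ cells was 0.0459 with edgeR and 0.0129 with DESeq2 on whole reads, and in CD4+ cells it was 0.0472 with DESeq2. Leaving out KO CD4+ animal 4 gave 0.43 (limma adjusted p = 0.0301), leaving out KO CD8+ animal 3 gave 0.68 (limma adjusted p = 0.019), and leaving out KO CD8+ animal 2, the highest library, gave 0.34 (limma adjusted p = 0.0456).

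*Klf9*, a zinc finger factor of the Krüppel-like family that is a direct receptor target in many tissues, was expressed at low levels and varied widely among KO animals. Its counts were 92.5, 105, 88.4 and 130.5 in WT CD4+ libraries and 185, 41.2, 172 and 356 in KO CD4+ libraries. They were 123, 162, 164 and 104 in WT CD8+ libraries and 162, 67.9, 191 and 233 in KO CD8+ libraries. KO libraries lay both above and below the WT range in each subset. The log2 fold change was 0.51 (95% confidence interval -0.67 to 1.70, limma adjusted p = 0.507) in CD4+ and 0.13 (-0.70 to 0.96, limma adjusted p = 0.816) in CD8+ cells. Without KO CD4+ animal 2 it was 1.12 in CD4+ cells (limma, adjusted p = 0.0278), so that a single library decided this result.

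*Zbtb16* encodes PLZF, a transcription factor of innate-like T cells that glucocorticoids induce in many cell types. It was the lowest of the members, with 23.4, 25.7, 26.2 and 18.4 normalized counts in WT CD4+ libraries and 7.65, 8.84, 4.77 and 4.39 in KO CD4+ libraries. These groups did not overlap, and *Zbtb16* fell by 1.75 on the log2 scale (SE 0.50, 0.296-fold, limma adjusted p = 0.0374). The call was lost on leaving out KO CD4+ animal 1 or 4 or any WT CD4+ library (limma adjusted p 0.0533 to 0.104). In CD8+ cells the WT libraries had 23.6, 26.9, 11.7 and 20.4 normalized counts and the KO libraries 39.6, 137, 31.4 and 9.47, so KO libraries ranged from below to far above WT. The log2 fold change there was 0.84 (95% confidence interval -0.75 to 2.43, limma adjusted p = 0.402). Other markers of innate-like T cells (*Klrb1c*, *Trdc*, *Sox13* and *Klra1*, 3 with a row) summed to 685 to 3073 normalized counts in KO CD8+ against 104 to 326 in WT CD8+ libraries, and to 223 to 1553 in KO CD4+ against 111 to 178 in WT CD4+ libraries, with no overlap in either subset. *Sox13* was at 0 in all KO CD8+ and *Klra1* in all WT CD4+ libraries. The markers were thus higher in KO CD4+ cells, where *Zbtb16* was lower, and their part in the *Zbtb16* values was not tested.

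**Figure D2:**
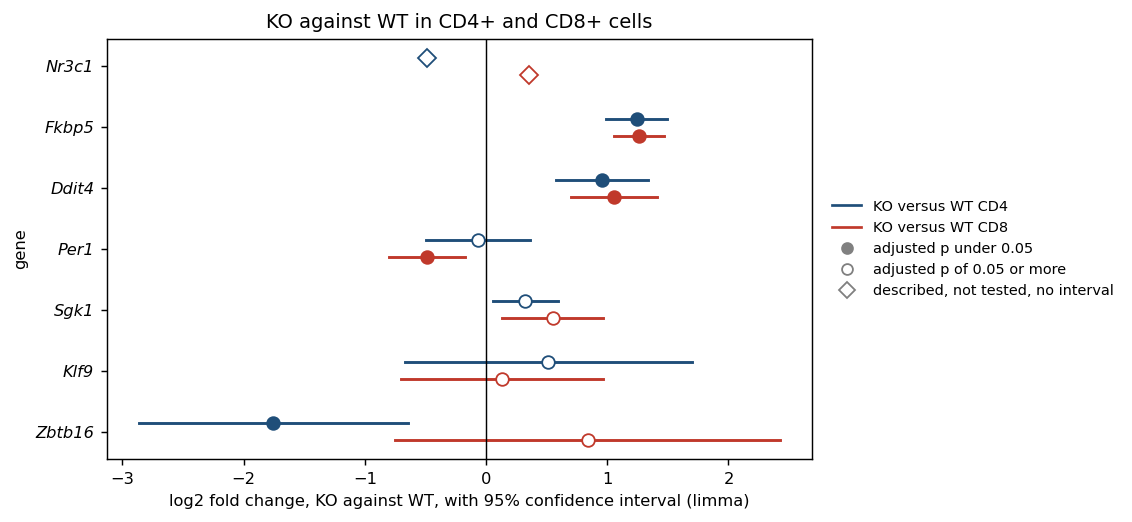
Log2 fold change of KO against WT (horizontal axis, limma on log2(normalized count + 1)) for each gene (vertical axis) in CD4+ and CD8+ cells, with 95% confidence intervals over 4 libraries per group. Filled points passed an adjusted p of 0.05, and *Nr3c1* is shown without interval or test. *Fkbp5* and *Ddit4* lie near 1 in both subsets, *Zbtb16* was called only in CD4+ and *Per1* only in CD8+ cells, and *Sgk1* and *Klf9* did not pass in either subset.

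In all, 3 of the 6 target genes passed the threshold in KO versus WT CD4+ cells, with *Fkbp5* and *Ddit4* higher and *Zbtb16* lower. Over all 12391 genes tested, 18.4% passed it, 8.59% being higher and 9.77% lower in KO. The groups did not overlap for 3 of the 6 targets, against 25.6% of all genes. In KO versus WT CD8+ cells 3 of 6 targets passed, with *Fkbp5* and *Ddit4* higher and *Per1* lower, where 25.2% of all genes passed, 12.6% higher and 12.5% lower. The groups did not overlap for 3 of the 6 targets in CD8+ cells, against 30.6% of all genes. With 6 genes these shares are coarse, and the targets moved in more than a single direction.

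Whether the effect of genotype differed between subsets was tested for the target genes with an interaction term over 16 libraries. None of the 6 passed the threshold with limma, edgeR or DESeq2, where 0.0161% of 12446 genes did with limma, and 1 of the 6 was under 0.05 before adjustment. For *Fkbp5* the fold changes in CD4+ and CD8+ cells differed by -0.02 on the log2 scale (95% confidence interval -0.34 to 0.30, limma adjusted p = 1), and for *Ddit4* by -0.10 (-0.64 to 0.44, limma adjusted p = 1). The intervals bound how far the effects on both genes can differ between subsets, and are wider for *Ddit4*. *Zbtb16*, with an unadjusted p of 0.00713, had the widest gap, -2.59 (95% confidence interval -4.38 to -0.81, limma adjusted p = 0.526). That *Per1* was called in CD8+ cells and *Zbtb16* in CD4+ cells is therefore not shown to be a difference between the subsets. With the animal as a block, which called 1.39% of all genes and none of the targets, the limma adjusted p was 0.0996 for *Per1* and 0.101 for *Zbtb16*.

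In the absence of the deletion, 2 target genes already differed between subsets. *Ddit4* was 1.79-fold higher in WT CD4+ than in WT CD8+ cells (log2 fold change 0.84, SE 0.11, limma adjusted p = 2.98e-05), and *Fkbp5* was 1.32-fold higher (0.41, SE 0.09, limma adjusted p = 0.00349). The other 4 targets did not pass, where 44.5% of 12559 genes did. *Nr3c1* and both called targets were thus each higher in WT CD4+ cells.

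In KO animals the same comparison called none of the 6 targets with limma or edgeR, where limma called 4.22% of 12189 genes, although 4 had an unadjusted p under 0.05 and DESeq2 called 3, where it called 7.84% of all genes. The CD4+ and CD8+ cells of a number were taken to come from the same animal, and with the animal as a block 4 targets passed, where 18.9% of all genes did. Under the block, *Ddit4* was higher in KO CD4+ cells by 0.74 (limma adjusted p = 0.00014), *Fkbp5* by 0.39 (0.0116) and *Per1* by 0.54 (0.00446), and *Zbtb16* was lower by 2.37 (0.0253), all as log2 fold changes. Each of these differences had a single direction in all 4 KO animals. *Sgk1* and *Klf9* did not pass under the block.

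KO DP cells, which carry both coreceptors, were set beside their single-positive neighbours. *Fkbp5* had 27842, 27416, 15011 and 25119 normalized counts in DP cells of animals 1 to 4, and *Ddit4* 19021, 10661, 17531 and 17465. Against KO CD8+ cells none of the 6 targets passed (limma, edgeR and DESeq2, with 0 at an unadjusted p under 0.05), where limma called 0.00823% of 12153 genes. The log2 fold changes of DP against KO CD8+ cells were -0.07 for *Fkbp5* (95% confidence interval -0.54 to 0.39), 0.18 for *Ddit4* (-0.31 to 0.67) and -0.17 for *Per1* (-0.71 to 0.36). The intervals are wide, and without the DP library of KO animal 3 the value of *Fkbp5* was 0.13, that of *Ddit4* 0.13 and that of *Per1* 0.03. Against KO CD4+ cells none passed with limma, edgeR or DESeq2 either, where limma called 1.95% of 12175 genes, and 3 were under 0.05 before adjustment. Blocking on the animal, *Ddit4* was lower in DP than in KO CD4+ cells, by 0.56 on the log2 scale (limma adjusted p = 0.0178), where the block called 7.06% of all genes. Without the DP library of KO animal 3 the values against KO CD4+ cells were -0.25 for *Fkbp5*, -0.61 for *Ddit4* and -0.51 for *Per1*, and limma again called none of the 6 targets in either DP comparison.

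For the other targets, DP values differed widely between KO animals. *Per1* had 1505, 1144, 782 and 1476 normalized counts in DP cells of animals 1 to 4, and *Sgk1* 2673, 4187, 2129.9 and 2636. *Klf9* had 209, 77.5, 146 and 279, and *Zbtb16* 21.6, 77.5, 23.6 and 4.79. KO animal 2 had the lowest *Klf9* and *Ddit4* and the highest *Sgk1* and *Zbtb16* in each of the CD4+, CD8+ and DP samples. KO animal 4 had the highest *Klf9* and the lowest *Zbtb16* in each of the 3. The targets therefore did not vary as a single block from animal to animal, since animal 2 was lowest for some and highest for others. This order is a description of 4 animals, and the 3 samples of an animal are not independent.

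**Figure D3:**
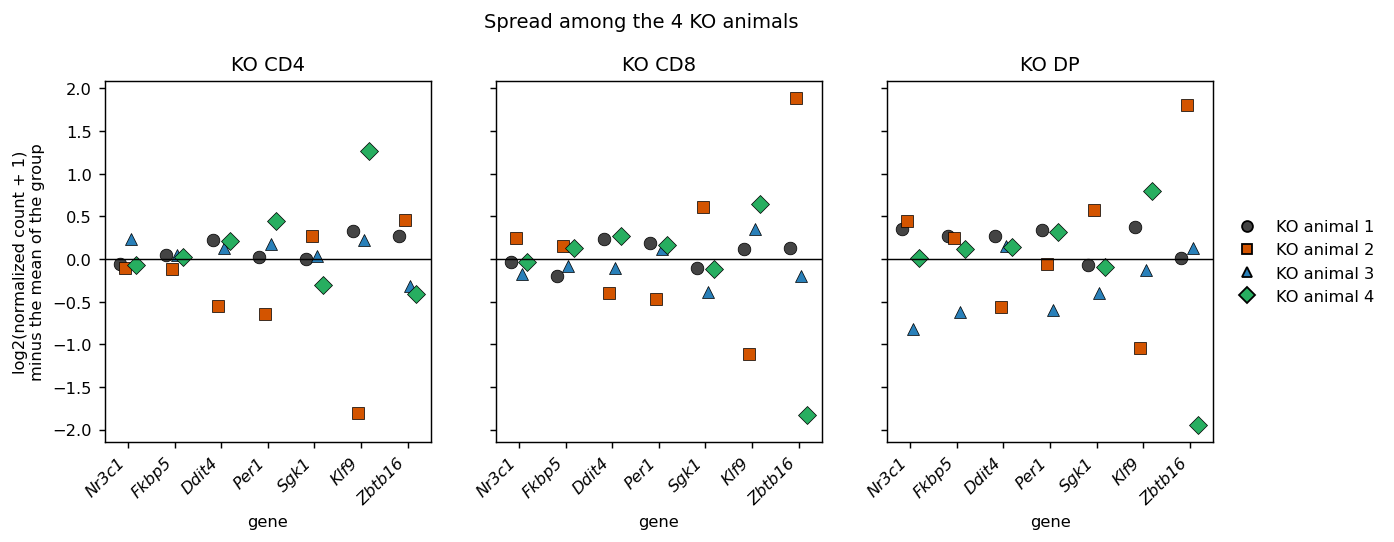
Deviation of log2(normalized count + 1) from the mean of its group (vertical axes) for each member (horizontal axes) in KO CD4+, KO CD8+ and KO DP libraries, with a colour and shape for each of the 4 KO animals. Animal 2 sits lowest for *Klf9* and *Ddit4* and highest for *Sgk1* and *Zbtb16* in all 3 panels, and animal 3 sits lowest for *Nr3c1*, *Fkbp5*, *Per1* and *Sgk1* in the DP panel.

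To compare levels between genes, counts were divided by the length of the merged RefSeq exons, which treats all annotated isoforms as used. Per kilobase of exon, *Ddit4* was the highest member in all 5 groups, with mean normalized counts of 7194 ± 1143 (SD, n = 4) in WT CD4+ and 14153 ± 3173 in KO CD4+ cells. *Fkbp5* was next in all groups, with 3508 ± 575 and 8228 ± 442. *Nr3c1* had 557 ± 12.2 in WT CD4+ and 399 ± 44.9 in KO CD4+ cells. *Sgk1* had 545 ± 53.7 and 687 ± 109, so that it was close to *Nr3c1* in WT CD4+ and above it in KO CD4+ cells. *Per1* had 239 ± 17.96 in WT CD4+ cells, *Klf9* 23.2 ± 4.23 and *Zbtb16* 3.01 ± 0.46, and this order of the last 3 genes was the same in every group.

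The genes whose pattern across the 20 libraries was most like that of *Nr3c1* were *Rab8b* (Pearson r = 0.919), *Xylt1* (0.903), *Pik3c2a* (0.893), *Map3k3* (0.878) and *St8sia4* (0.875), among 10708 genes whose normalized counts averaged 50 or more. The libraries share animals and groups, so these values are a description. The 5 target genes that reach this mean were less like it, with r of 0.51 for *Per1*, 0.15 for *Sgk1*, 0.14 for *Fkbp5*, 0.14 for *Ddit4* and -0.27 for *Klf9*, and *Zbtb16* was below the mean required. *Rab8b*, a small GTPase of vesicle transport, had 21090.3 ± 946 normalized counts in WT CD4+, 19273 ± 1464 in KO CD4+, 16026 ± 448 in WT CD8+ and 17092 ± 316 in KO CD8+ cells (SD, n = 4 each).

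Other genes around the receptor were counted in lists. Of 20 tested genes of the receptor machinery (chaperones, coactivators, corepressors and enzymes that activate or inactivate the hormone), 2 were higher and 1 lower in KO CD4+ cells, and 5 were higher and 1 lower in KO CD8+ cells. Over all genes tested, 18.4% passed the threshold in CD4+ cells, 8.59% higher and 9.77% lower in KO. In CD8+ cells 25.2% passed it, 12.6% higher and 12.5% lower. The median log2 fold change of the list was -0.06 in CD4+ and -0.02 in CD8+ cells, against -0.05 and -0.04 over all genes. *Ppid*, encoding the co-chaperone cyclophilin 40, fell to 1310.3 ± 330.0 normalized counts (SD, n = 4) from 2515 ± 191 in CD4+ cells (limma adjusted p = 0.00576) and to 1494 ± 564 from 3261 ± 94.4 in CD8+ cells (0.00478). *Hsd11b1*, whose enzyme regenerates active glucocorticoid inside cells, rose to 5777 ± 1128 from 4126 ± 177 in CD4+ cells (limma adjusted p = 0.0306) and to 6363 ± 1327 from 4129 ± 58.4 in CD8+ cells (0.0115). *Bag1*, a chaperone regulator, rose by 0.32 on the log2 scale in CD4+ cells (limma adjusted p = 0.0192), and *Crebbp*, a coactivator, by 0.44 in CD8+ cells (0.023). Under quantile normalization the list held 2 higher and 4 lower genes in CD4+ and 3 higher and 2 lower genes in CD8+ cells.

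A further list held other genes that glucocorticoids are known to induce. Of 23 tested, 3 were higher and 5 lower in KO CD4+ cells (median log2 fold change -0.09), and 4 were higher and 7 lower in KO CD8+ cells (median -0.38). Among all genes, 8.59% were higher and 9.77% lower in KO CD4+ cells, and 12.6% and 12.5% in KO CD8+ cells. *Il7r*, the receptor for interleukin 7, rose in both subsets, with log2 fold changes of 1.198 in CD4+ and 1.65 in CD8+ cells (limma adjusted p = 0.0107 and 0.0151), and *Pik3ip1*, an inhibitor of PI3K, rose likewise, with 1.42 and 1.87 (0.0188 and 0.00655). *Dusp1*, a phosphatase of MAP kinases, fell, with log2 fold changes of -1.68 and -1.99 (limma adjusted p = 0.0136 and 0.00147), and the small GTPase gene *Rasd1* fell, with -2.38 and -1.43 (0.0152 and 0.0259). Known induced genes thus stood on both sides, as did the members. Under quantile normalization the medians of this list were -0.09 and -0.08.

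Genes that glucocorticoids are known to repress in inflammation were, where called, lower in KO. Of 13 tested in CD4+ cells 5 were lower and none higher with limma (median log2 fold change -1.32), and of 9 tested in CD8+ cells 5 were lower and none higher (median -1.24). Among all genes, 9.77% were called lower in KO CD4+ and 12.5% in KO CD8+ cells. Under quantile normalization 3 of the 13 listed genes were lower in CD4+ and 5 of the 9 in CD8+ cells. *Ifng*, encoding interferon gamma, had 6351 ± 1418 normalized counts in WT CD4+ and 3397 ± 1201 in KO CD4+ cells (SD, n = 4, limma adjusted p = 0.0322), where KO animal 2 overlapped the WT range, and 11162 ± 693 in WT CD8+ and 3458 ± 1509 in KO CD8+ cells (0.00256). The chemokine gene *Ccl3* fell by 2.08 in CD8+ cells (limma adjusted p = 0.0257) and *Ccl4* by 1.79 (0.0354), with *Ccl4* overlapping between the genotypes. *Il4* fell in CD4+ cells, from 45.5 ± 18.9 to 8.14 ± 7.41 (limma adjusted p = 0.0428). The paper reports higher interferon gamma and CCL3 protein in the serum of KO recipients, at an earlier time than these RNA samples. Whether the receptor had a part in the values of this list was not tested.

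**Figure D4:**
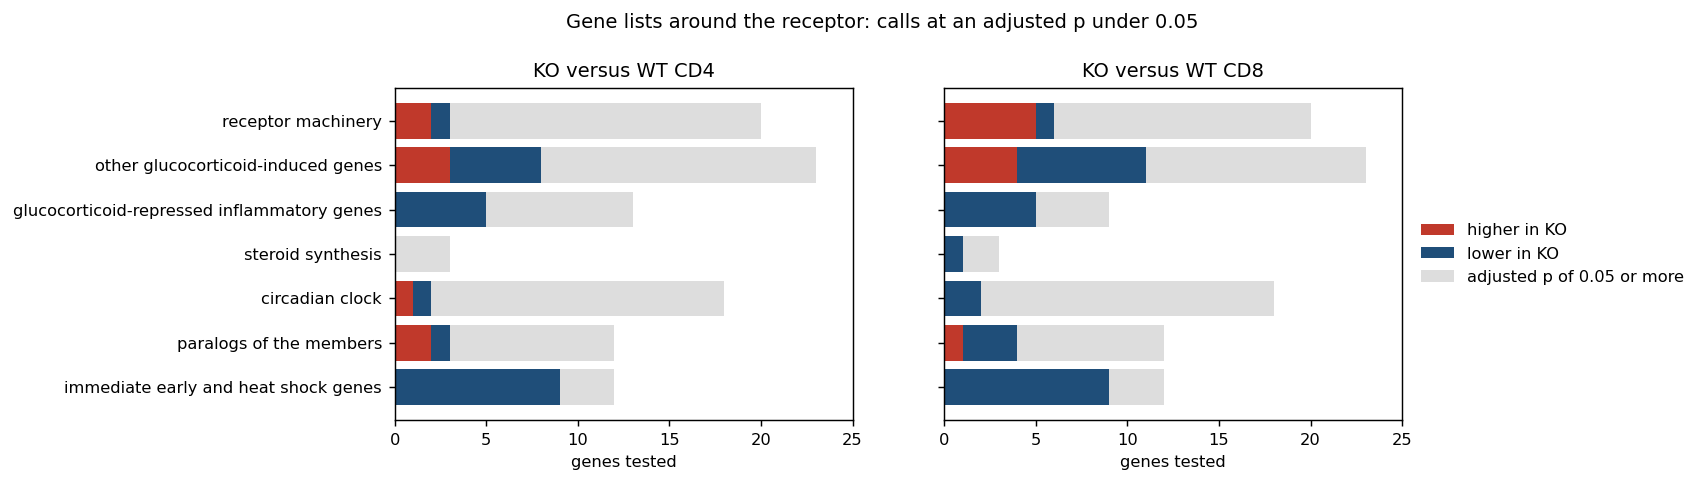
Number of genes tested in each list around the receptor (horizontal axes), split into those higher in KO, lower in KO and past an adjusted p of 0.05 in neither direction (limma), in CD4+ and CD8+ cells. The repressed inflammatory genes and the immediate early and heat shock genes have calls on the lower side only, and the induced genes have calls on both sides.

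The circadian clock list and the paralogs of the members were counted in the same way, against 18.4% of all genes called in CD4+ and 25.2% in CD8+ cells. Of 18 clock genes, *Per1* included, 1 was higher and 1 lower in KO CD4+ cells and 2 were lower in KO CD8+ cells. *Tef* rose by 0.92 in CD4+ cells (limma adjusted p = 0.033), and *Bhlhe40* fell, with log2 fold changes of -0.41 in CD4+ and -0.39 in CD8+ cells (0.048 and 0.00985), so the fall of *Per1* in CD8+ cells stood with a single other clock gene. Of 12 paralogs, 2 were higher and 1 lower in CD4+ cells and 1 was higher and 3 were lower in CD8+ cells. Under quantile normalization 1 clock gene was higher and 2 were lower in CD8+ cells, and of the paralogs 2 were higher and 2 lower in CD4+ and 2 higher and 3 lower in CD8+ cells. *Klf13*, a relative of *Klf9*, rose in both, from 12043 ± 843 to 23003 ± 5498 normalized counts in CD4+ cells (SD, n = 4, limma adjusted p = 0.00553) and from 10301 ± 491 to 22426 ± 5524 in CD8+ cells (0.00335). *Klf11* rose by 0.88 in CD4+ cells (limma adjusted p = 0.0494), while *Klf10* fell by 0.44 (0.0221) and *Tsc22d1*, a relative of *Tsc22d3*, by 1.39 (0.0447) in CD8+ cells. Of 3 tested genes of steroid synthesis, only *Fdxr*, encoding ferredoxin reductase, was called, with a fall of 0.50 in CD8+ cells (limma adjusted p = 0.0264). Among the genes named from the lists, *Ppid*, *Il7r*, *Klf13*, *Fosb*, *Hspa1a* and *Hspa1b* were called in both subsets with any single library left out, and *Hsd11b1*, *Dusp1*, *Pik3ip1*, *Ifng* and *Bhlhe40* in CD8+ cells, while each other call was lost without at least 1 library. The least stable were *Ccl4* in CD8+ cells and *Bhlhe40* and *Klf11* in CD4+ cells, whose calls were kept in 1 of 8 such fits, with limma adjusted p of up to 0.0873, 0.134 and 0.13.

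Immediate early and heat shock genes, which respond quickly to stimulation and stress, differed between the genotypes alongside the members. Of 12 tested, 9 were lower and none higher in KO with limma in each subset. Among all genes, 9.77% were called lower in KO CD4+ and 12.5% in KO CD8+ cells. The median log2 fold change was -1.87 in CD4+ and -2.20 in CD8+ cells over the 12 genes. Their summed counts were 47534 to 80714 in WT CD4+ against 23809 to 36619 in KO CD4+ libraries, and 36011 to 55033 in WT CD8+ against 18772 to 26892 in KO CD8+ libraries. The ranges did not overlap. *Fosb* had 1820 ± 1086 normalized counts in WT CD4+ and 86.5 ± 45.04 in KO CD4+ cells (SD, n = 4), and *Atf3* 44.8 ± 13.5 and 8.62 ± 8.77. *Hspa1a*, whose reads cannot be fully told apart from those of its near-identical copy *Hspa1b*, had 6240.0 ± 3739 and 40.8 ± 29.2. The part of this difference in the values of *Fkbp5*, *Ddit4* and *Per1* was not tested. Markers of neutrophils and monocytes (5 of 6 with a row) summed to 2161 to 3035 in WT CD4+ and 680 to 2928 in KO CD4+ libraries, and to 2604 to 4903 in WT CD8+ and 1555 to 4461 in KO CD8+ libraries. Median sums were 2707 and 726 in WT and KO CD4+ libraries, and 3595 and 3058 in WT and KO CD8+ libraries. Over the 5 genes the median log2 fold change was -3.03 in CD4+ and -2.53 in CD8+ cells. The erythroid marker with a row (1 of 4) had 93.6 to 521 normalized counts in WT CD4+ and 0 to 151 in KO CD4+ libraries. It had 85.5 to 364 in WT CD8+ and 0 to 122 in KO CD8+ libraries. B cell markers summed to 1171 to 1641 in WT CD4+ and 824 to 1499 in KO CD4+ libraries, and to 259 to 317 in WT CD8+ and 268 to 552 in KO CD8+ libraries. The 2 of these 5 markers that were tested had a median log2 fold change of 1.49 in CD4+ and 0.64 in CD8+ cells. In CD4+ cells this median and the sum therefore pointed in opposite directions. Markers of stroma and endothelium (*Col1a1*, *Pecam1*, *Kdr* and *Acta2*) did not overlap between genotypes, with sums of 3763 to 5151 in WT CD4+ against 5756 to 8587 in KO CD4+ and 2406 to 2622 in WT CD8+ against 2905 to 4945 in KO CD8+ libraries. *Pecam1*, which T cells also express, made up nearly all of this sum, at 5708 to 8505 in KO CD4+ cells, where *Kdr* was at 0 and *Col1a1* at 12.8 to 63.7. The part of these markers in the members' values was not tested either.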

How the data were processed

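RNA was measured in 20 libraries of sorted donor T cells in 5 groups of 4. Per the study's methods, poly(A) RNA was made into strand-specific libraries, aligned with STAR to mm10 (version 2.7.2b in the submitters' processing notes), counted strand-aware on genes and normalized with DESeq2. The deposited values are a signal, namely read counts divided by the authors' size factor for each library, and whole reads were recovered from them for 100% of values (tolerance 0.0001). Total reads on genes were 37547651 to 46966318. Log2(normalized count + 1) values of genes with a mean of at least 10 over the libraries compared were tested two-sided with limma 3.58.1 (trend) in R 4.3.3, and p-values were adjusted by Benjamini-Hochberg over all genes tested, with a threshold of 0.05. *Nr3c1* was not tested. The genes and lists were chosen with earlier results of these data known. All members are named, with at most 4 other called genes of each list, by size of change, and the 5 genes most like *Nr3c1*.

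Alternatives were a pseudocount of 10, no filter, a minimum mean of 50, quantile and 75th percentile scaling, no trend, edgeR 4.0.16 and DESeq2 1.42.0 on whole reads, a joint fit, a block for animal number and each library left out. The fits were tested on simulated CD4+ counts with the same dispersion in both genotypes. In the data the spread could differ, as for *Klf9*, with a log2 SD of 1.30 in KO CD4+ and 0.249 in WT CD4+ cells. The simulation did not cover such a difference. Equal numbers within a genotype were taken to mean the same animal. Their libraries deviated together from the group means, with a correlation of 0.412 to 0.498 between KO CD4+ and CD8+, 0.271 to 0.457 between KO CD4+ and DP, 0.338 to 0.538 between KO CD8+ and DP and 0.12 to 0.196 between WT CD4+ and CD8+ cells. A shared sort or batch could give such correlations as well. No pair of libraries within a group agreed within sampling noise (lowest chi-square per degree of freedom 10.6). Sequences and gene positions are from RefSeq on GRCm38.p6.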

Additional observations from a re-analysis of the deposited data

Results flagged for a closer look

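In 4 of 35 groups of 4 libraries, 1 library lay far from the other 3 by Dixon's criterion, which chance meets in about 1 of 20 groups. *Nr3c1* in KO CD4+ cells was highest in animal 3, at 4239 normalized counts. Animal 2 was lowest for *Fkbp5* in KO CD4+ cells (29401), for *Ddit4* in KO CD4+ cells (15913) and for *Per1* in KO CD8+ cells (969.7). The KO libraries of *Nr3c1* all lay below the WT libraries in CD4+ cells and all above them in CD8+ cells, with fold changes that differed by -0.84 on the log2 scale. This difference was not tested, because the gene was picked on it.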

How the results depend on the processing

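*Nr3c1* kept its direction in both subsets and in their difference under every alternative run. The gene was picked on this pattern in the same libraries, so these refits describe its size and are no test of it. Its log2 fold change was -0.52 to -0.44 (CD4+) and 0.31 to 0.37 (CD8+) with all libraries, and from -0.56 to -0.45 and 0.27 to 0.42 with 1 left out. Without KO animal 3 in both subsets, an alternative chosen after seeing the data, the difference was -0.98. KO and WT groups share numbers 2 and 3 only, and the labels do not say whether a shared number links them. KO and WT libraries of equal number had correlations of 0.0696 to 0.0846 in CD4+ and -0.0024 to 0.099 in CD8+ cells. Those of different number had -0.116 to 0.0873 and -0.119 to 0.129, and so few equal pairs cannot decide the question. With these numbers as a replicate block 0 targets were called in CD4+ and 1 in CD8+ cells, against 26 and 89 of all genes, and *Klf9* turned to -0.22 and -0.31. Within genotypes the block called 1 target in KO DP versus CD4+ and 4 in KO CD4+ versus CD8+ cells, and changed no other count of targets. The joint fit called 1 target in KO DP versus CD4+, 1 in KO CD4+ versus CD8+ and 1 in WT CD4+ versus CD8+ cells, and DESeq2 called 3 in KO CD4+ versus CD8+ cells. Leaving out 1 library gave 0 to 1 there, 2 to 4 in KO versus WT CD4+ and 2 to 4 in KO versus WT CD8+ cells. The causes were not tested.

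The direction of some results turned, none of them called as reported. In DP versus KO CD4+ cells, *Sgk1* became 0.0019 by quantile scaling, 0.0307 by edgeR and 0.0307 by DESeq2, and *Klf9* -0.0765 by edgeR and -0.0748 by DESeq2. In KO CD4+ versus CD8+ cells, *Klf9* became 0.0059 with a pseudocount of 10, 0.19 by edgeR and 0.201 by DESeq2. In WT CD4+ versus CD8+ cells, *Sgk1* became 0.0067 by quantile and 0.0064 by 75th percentile scaling, 9.0e-05 by edgeR and 0.0048 by DESeq2. With 1 library left out, ranges that crossed 0 were -0.22 to 0.15 for *Per1* in CD4+ and -0.0827 to 0.505 for *Klf9* in CD8+ cells (KO versus WT), -0.102 to 0.0613 for *Fkbp5*, -0.0394 to 0.987 for *Klf9* and -0.233 to 0.0838 for *Ddit4* in the interaction, -0.16 to 0.13 for *Fkbp5*, -0.33 to 0.0261 for *Per1* and -0.26 to 0.46 for *Klf9* in DP versus KO CD8+, -0.20 to 0.13 for *Sgk1* and -0.48 to 0.55 for *Klf9* in DP versus KO CD4+, -0.44 to 0.59 for *Klf9* in KO CD4+ versus CD8+, and -0.0551 to 0.0672 for *Sgk1* and -0.015 to 0.364 for *Zbtb16* in WT CD4+ versus CD8+ cells. The count of all genes called was 1304 to 3100 (KO versus WT CD4+) and 2017 to 3833 (CD8+) with all libraries, 0 to 21 for the interaction (173 with the block), 124 to 1459 in DP versus KO CD4+ (860), 299 to 956 in KO CD4+ versus CD8+ (2305), 1 to 3 in DP versus KO CD8+ and 1610 to 5742 in WT CD4+ versus CD8+ cells. A minimum mean of 50 left *Zbtb16* untested. Low counts limit *Zbtb16* and *Klf9*, and 4 animals per group limit all intervals.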
